A study of Homo sapiens with 18 samples.

Results

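Solute carriers are membrane proteins that move amino acids, sugars, metals, ions, vitamins and mitochondrial metabolites across membranes without hydrolysing ATP. The genes described here are the rows of the deposited tables whose symbol begins with SLC and a digit, without SLC7A11, SLC1A4, SLC2A3 and SLC2A4RG. They number 62 of the 3647 genes that appear in any of the 3 tables. The RNA libraries come from Cal51 cells, an established human line of breast cancer origin, and the series holds 18 of them in 6 groups of 3. Of these, 4 groups were used, all of cells exposed for 8 h, with no dose in the labels. DMSO was the solvent control, fenofibrate is a lipid-lowering agonist of the receptor PPARα, ezetimibe blocks the sterol transporter NPC1L1, and the fourth group received fenofibrate plus ezetimibe, called the combination below. The PKM2 knockout group and its control group (6 libraries) are not analysed here. Since the labels do not state that replicates came from separate cultures, all errors and p-values may measure technical spread alone.

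Carriers of the SLC group are sorted into families by sequence. Most plasma membrane families either couple a substrate to the sodium or proton gradient, exchange 1 substrate for another, or let it pass down its own gradient. The SLC25 family sits mainly in the inner mitochondrial membrane and links cytosolic and matrix metabolism. Zinc is handled by opposing families: SLC30 proteins (ZnT) move it out of the cytosol into vesicles or out of the cell, and SLC39 proteins (ZIP) move it into the cytosol. A transcript level says nothing directly about how much substrate is carried. In bulk RNA, fewer cells of a kind and less RNA per cell cannot be told apart.

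Values are normalised read counts, deposited per library in a separate table for each drug condition, each with the same 3 DMSO libraries. Each table lists only genes that the authors called: every row has a log2 fold change beyond 1 in either direction and an adjusted p-value below 0.05. The listing is therefore itself the comparison with DMSO, the changes from DMSO below are given as a description, and a gene outside a table is called not listed. The summed normalised reads of the listed genes ran from 2678000 to 3186190 per library in the combination table, from 197705 to 323551 in the ezetimibe table and from 41826 to 104874 in the fenofibrate table. Total library depth is unknown. Combination replicate 1 stood apart. Over 2303 genes with a mean of at least 50, its log2 values correlated at 0.976 and 0.982 with replicates 2 and 3, which correlated at 0.994 with each other, and its deviations from the group mean correlated at -0.370 with log2 gene length. Of 13 cell type markers, COL1A1 (262 ± 15.2 against 1021 ± 158 in DMSO) and ERBB2 (1224 ± 73.3 against 2951 ± 285) were listed lower in the combination, and CDH5 was listed lower with ezetimibe at 10.1 ± 3.38 against 26.9 ± 10.3 (SD, n = 3). The others were not listed, so the cell line label could not be checked further, and the part of these markers in the carrier changes was not tested.

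Of the 62 solute carrier genes 58 were listed for the combination, 38 higher and 20 lower than DMSO, beside 58.7% and 41.3% of all 3508 genes there. Ezetimibe alone had 11, with 10 higher and 1 lower, beside 77.8% and 22.2% of its 472 genes, and fenofibrate alone had 3 higher and 0 lower, beside 91.2% and 8.82% of its 102 genes. Limma called all of these members, as it did 100%, 99.8% and 100% of the genes listed for the combination, ezetimibe (77.5% called higher and 22.2% lower) and fenofibrate, so nothing is read from those calls. Protein-coding members of these families number 371 in GENCODE release 29. Of them, 55 (14.8%) were listed in the combination table, against 13.7% of all 19965 protein-coding genes, so their share was near the background. The corresponding shares were 2.96% against 1.99% for ezetimibe and 0.809% against 0.481% for fenofibrate. By direction, the 371 genes had 36 listed higher and 19 lower in the combination, beside 7.46% and 6.28% of all protein-coding genes, 10 and 1 with ezetimibe, beside 1.54% and 0.446%, and 3 and 0 with fenofibrate, beside 0.436% and 0.0451%. In the combination 65.5% of the members listed were higher. The median of the log2 fold changes in the authors' deposited table was 1.28 for the members and 1.17 for the table. No solute carrier overlapped between treated and DMSO libraries in the single-drug tables, and 57 of 58 did not in the combination, beside 98.0%, 98.3% and 99.0% of all genes of the fenofibrate, ezetimibe and combination tables. The exception was SLC25A32.

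Rises and falls were spread over every substrate class in the combination. Classes follow the SLC family number, so the substrate of a member can differ from its class name. SLC16A10, an aromatic amino acid carrier, is thus counted with organic ions, and SLC35B1, which carries ATP, with sugars. Carriers of amino acids and peptides had 6 rises and 3 falls among 64 annotated genes, metal transporters had 2 and 1 of 32, and carriers of organic ions and carboxylates had 6 and 1 of 66. Carriers of inorganic ions and protons had 7 rises and 4 falls of 58. Sugar and nucleotide sugar carriers had 9 and 2 of 65, and the class of vitamins, nucleosides, lipids and others had 2 and 3 of 34. Mitochondrial SLC25 carriers were evenly divided, with 4 rises and 4 falls of 49. The share of each class that was listed ran from 9.38% for metals to 18.97% for inorganic ions. Of all protein-coding genes 13.7% were listed, 7.46% higher and 6.28% lower. These counts were the same when combination replicate 1 was left out, which the listing from the same libraries largely fixes. A scaffold protein with an SLC symbol, a pair of pseudogenes and an antisense transcript make up the other 4 members.

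**Figure D1:**
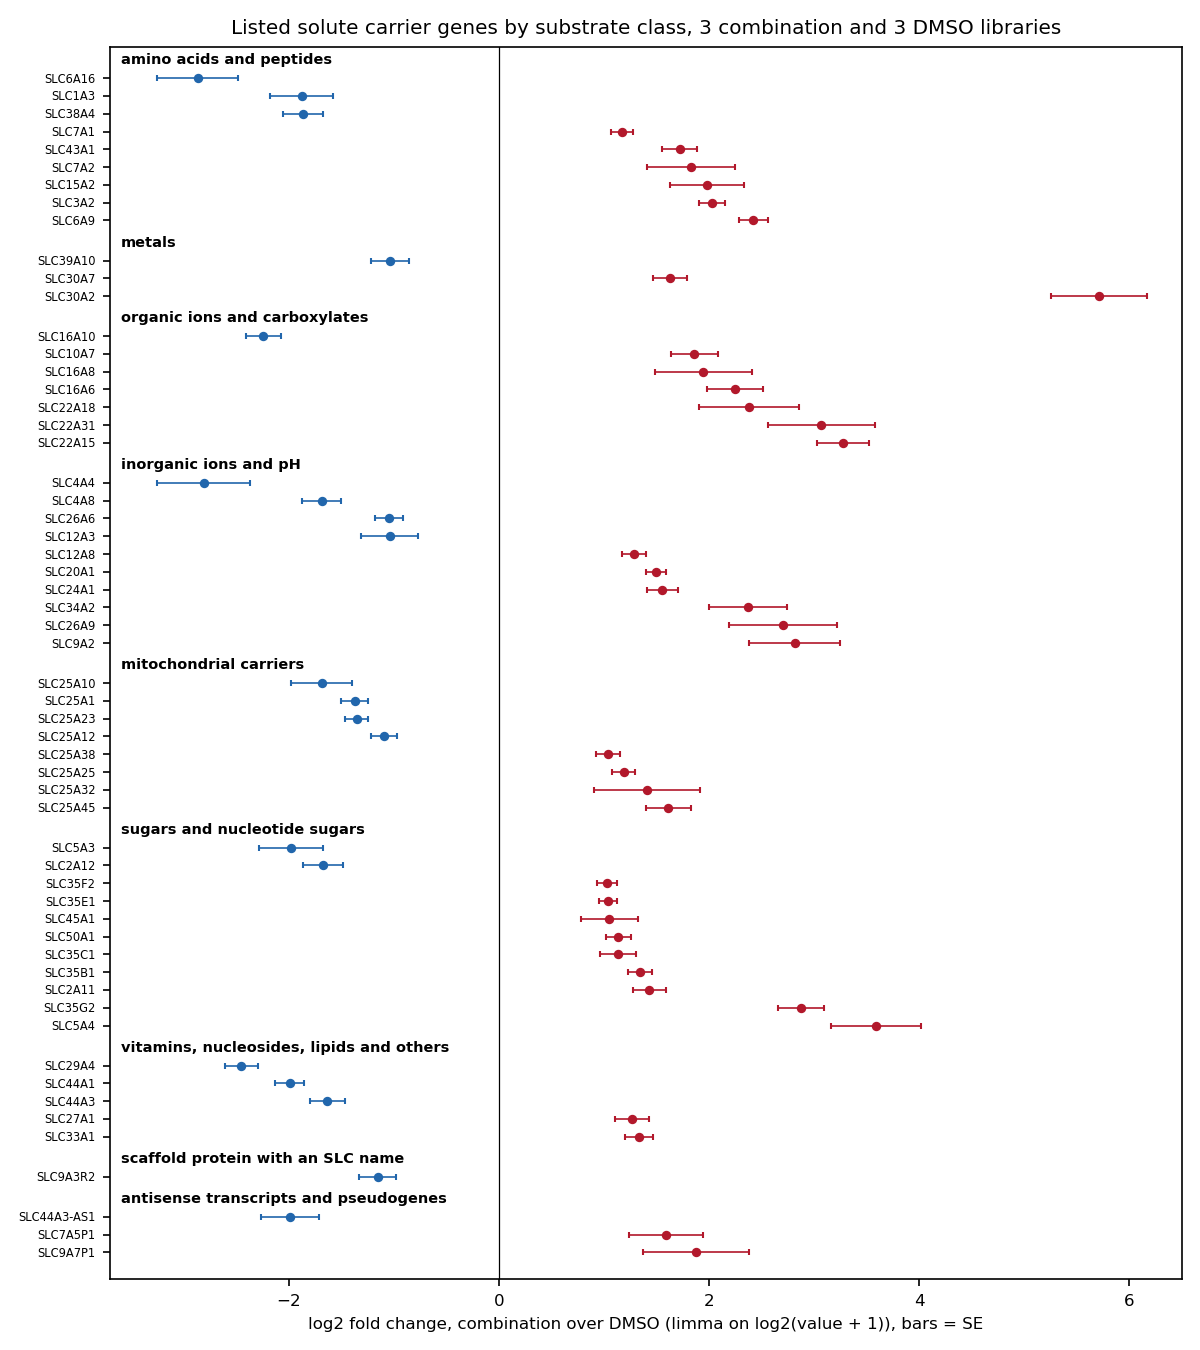
Log2 fold change of 57 of the 58 solute carrier genes in the combination table, combination over DMSO (x axis, limma on log2 of the value plus 1), with 1 gene per row grouped by substrate class. Points are estimates from 3 libraries per group and bars are standard errors. SLC30A2 lies farthest to the right at 5.71, and the mitochondrial carriers are divided between the sides.

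Fenofibrate alone raised 3 carriers. SLC6A9 (chr1:43991500-44031467, minus strand in hg38), which encodes GlyT1, a sodium- and chloride-coupled glycine transporter, had 347, 326 and 261 normalised reads in the DMSO libraries and 842, 844 and 813 with fenofibrate, 2.68-fold higher. SLC29A2 (chr11:66362521-66372214, minus strand), the equilibrative nucleoside transporter ENT2, had 137, 153 and 154 in DMSO and 283, 372 and 276 with fenofibrate, 2.09-fold. SLC16A13 (chr17:7036075-7040121, plus strand), a member of the monocarboxylate transporter family, went from 17.2, 30.3 and 31.3 to 53.4, 78.1 and 59.8, 2.43-fold. Every fenofibrate library was above every DMSO library for each of the 3, and the gap was widest for SLC6A9. The highest SLC29A2 and SLC16A13 values were both in fenofibrate replicate 2, which correlated at 0.976 and 0.974 with the other fenofibrate libraries over 95 genes, while those correlated at 0.991. Deviations of fenofibrate replicate 2 from the group mean correlated at -0.537 with log2 gene length. SLC29A2 and SLC16A13 are 2720 and 2087 bases long, beside a median of 4384 bases for all genes listed with fenofibrate. The part of that library or of length in the fenofibrate values was not tested. SLC29A2 was not listed in the other tables and SLC16A13 was not listed in the combination.

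Ezetimibe alone raised 10 carriers of different substrates and lowered 1. SLC6A9 rose again, from 357, 336 and 267 to 1262, 1289 and 1273, 3.98-fold, with the 3 ezetimibe libraries close together. SLC33A1, which brings acetyl-CoA into the endoplasmic reticulum, went from 201, 194 and 240.5 to 458, 470.5 and 434. SLC24A1, a potassium-dependent sodium/calcium exchanger, went from 164, 148 and 145 to 312, 364 and 345. Each of these had all treated libraries well above DMSO, at 2.14-fold for SLC33A1 and 2.23-fold for SLC24A1. SLC2A11, the facilitative sugar transporter GLUT11, rose from 105, 104 and 89.8 to 225, 199 and 207. SLC22A31, of the organic ion transporter family, had 1.96, 7.37 and 12.8 in DMSO and 49.5, 50.6 and 56.1 with ezetimibe. Its DMSO libraries were low and uneven, so the 7.05-fold ratio rests on few control reads, and the log2 change of 2.92 ± 0.48 (SE) became 2.30 without DMSO replicate 1. SLC1A3, the glutamate and aspartate transporter EAAT1, fell from 51.9, 58.9 and 54.5 to 19.6, 23.7 and 14.3, 0.348 of the DMSO mean.

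The remaining ezetimibe members had under 100 normalised reads in every library. SLC30A4, the vesicular zinc transporter ZnT4, had 4.90, 16.6 and 11.8 in DMSO and 35.1, 25.8 and 38.95 with ezetimibe. SLC30A2, the vesicular zinc transporter ZnT2, had 16.7, 14.7 and 3.21 and 35.1, 30.95 and 32.3. Both zinc genes were higher in every ezetimibe library, and for both the DMSO libraries differed several-fold among themselves. For SLC30A2 the log2 change of 1.68 ± 0.49 became 1.02 without DMSO replicate 3. SLC13A4, a sodium-coupled sulfate transporter, had a mean of 28.4 ± 5.78 in DMSO and 60.6 ± 4.76 with ezetimibe (SD, n = 3). SLC16A13 had 17.6, 31.3 and 32.1 and 62.9, 61.9 and 74.1, and SLC45A1, a proton-coupled sugar transporter, had 19.6, 28.6 and 22.4 and 44.3, 51.6 and 50.4. The treated and DMSO values did not overlap for these 3 genes, at 2.14-fold, 2.46-fold and 2.07-fold. SLC13A4 and SLC30A4 were listed with ezetimibe only. Near the fold threshold of the listing, the authors' deposited table gave log2 fold changes of 1.05 for SLC45A1 and 1.08 for SLC2A11 with ezetimibe, 1.06 for SLC29A2 with fenofibrate, and -1.01 for SLC39A10 and 1.03 for SLC35F2 in the combination. Genes just outside the listing have no values here.

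**Figure D2:**
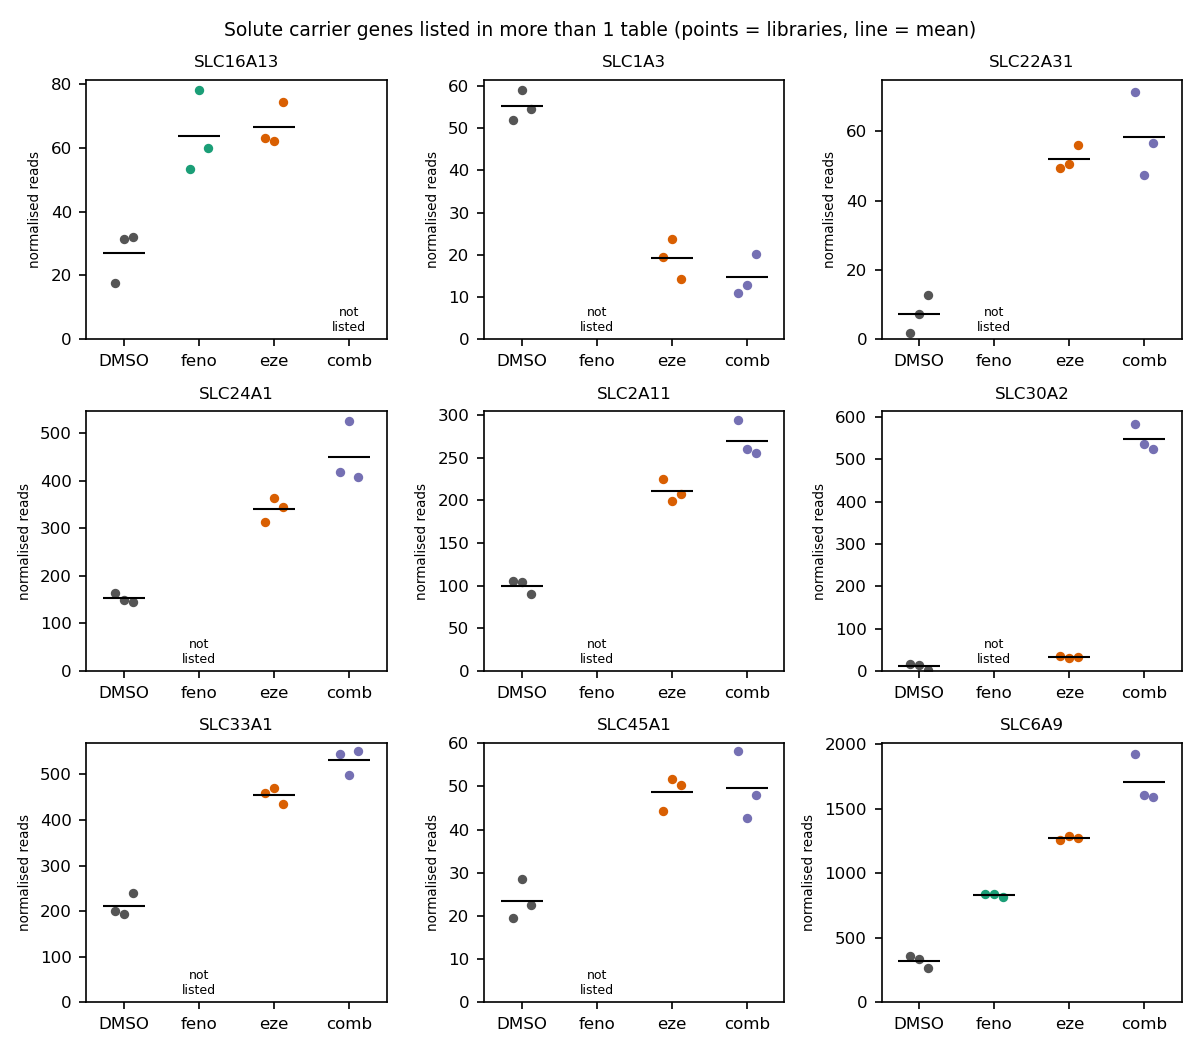
Normalised reads (y axis, linear, from 0) of the 9 solute carrier genes listed in more than 1 table, in DMSO, fenofibrate (feno), ezetimibe (eze) and combination (comb) libraries. Points are libraries and lines are means of 3, each on the scale of its own table, with DMSO on that of the ezetimibe table. SLC30A2 has a mean of 549 in the combination and 11.5 in DMSO, and SLC6A9 is the gene with values in all 4 groups.

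Whether the combination differed from a single drug could be tested for genes listed in both tables, after scaling the tables to each other by the DMSO libraries they share. Of the 8 carriers listed with both ezetimibe and the combination, 4 differed between them (limma, adjusted p under 0.05), all higher in the combination, beside 63.2% of the 359 genes tested (53.2% higher and 10.0% lower). SLC30A2 differed most, by 4.03 ± 0.41 on the log2 scale (SE; 95% interval 3.14 to 4.92, limma adjusted p = 1.99e-06), with every combination library above every ezetimibe library. SLC6A9 was higher by 0.42 ± 0.13 (0.15 to 0.69, limma adjusted p = 0.01002). SLC24A1 was higher by 0.40 ± 0.14 (0.10 to 0.70, limma adjusted p = 0.0222) and SLC2A11 by 0.36 ± 0.14 (0.06 to 0.66, limma adjusted p = 0.0381). The SLC30A2 and SLC6A9 calls held when any single library was left out. SLC24A1 and SLC2A11 lost the call with some libraries left out, at differences that stayed positive. The SLC24A1 difference was 0.28 (limma adjusted p = 0.114) without combination replicate 2, 0.34 (limma adjusted p = 0.0936) without ezetimibe replicate 1 and 0.41 (limma adjusted p = 0.0574) without ezetimibe replicate 3. For SLC2A11 the difference was 0.30, 0.39 and 0.40 without combination replicates 1, 2 and 3, with limma adjusted p = 0.0903, 0.0607 and 0.0570. It was 0.41, 0.32 and 0.35 without ezetimibe replicates 1, 2 and 3, with limma adjusted p = 0.0516, 0.122 and 0.112.

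The other 4 carriers did not pass this test. The combination minus ezetimibe difference was 0.23 ± 0.12 for SLC33A1 (95% interval -0.04 to 0.50, limma adjusted p = 0.127) and -0.38 ± 0.30 for SLC1A3 (-1.03 to 0.28, limma adjusted p = 0.292). It was 0.15 ± 0.45 for SLC22A31 (-0.82 to 1.11, limma adjusted p = 0.781) and 0.02 ± 0.23 for SLC45A1 (-0.49 to 0.52, limma adjusted p = 0.947). The widest interval was that of SLC22A31, whose libraries hold few reads, and all 4 intervals include 0. Against fenofibrate, SLC6A9 was the single carrier that could be tested and was higher in the combination by 0.99 ± 0.12 (0.72 to 1.27, limma adjusted p = 3.45e-05), where 78.5% of 65 genes differed (69.2% higher and 9.23% lower). On the common scale its means were 319 in DMSO, 854 with fenofibrate, 1271 with ezetimibe and 1707 in the combination. Its combination change minus the sum of the single-drug changes was -1.01 ± 0.15 (-1.34 to -0.68, limma adjusted p = 0.000135) on the log2 scale, so it was smaller than that sum, beside 71.4% of the 49 genes listed in all 3 tables that departed from the sum (55.1% below it and 16.3% above). The 49 genes were fitted only because all 3 treatments were listed against these same DMSO libraries. The p-value and interval make no allowance for that choice.

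Amino acid carriers on the plasma membrane held the most abundant member. SLC3A2 (chr11:62856102-62888875, plus strand), the 4F2 heavy chain (CD98) that pairs with light chains such as SLC7A5 to exchange large neutral amino acids, had 7511, 7895 and 6659 normalised reads in DMSO and 34383, 26922 and 28706 in the combination, 4.08-fold. Per kilobase of the deposited gene length its level was 5794 in the combination, against 1420.5 in DMSO, the highest of the 58 members in both groups. SLC7A5 itself was not listed with any treatment. SLC6A9 had 356, 335 and 267 in DMSO and 1927, 1604 and 1591 in the combination, 5.35-fold. For both genes replicate 1 was the highest combination library and no library overlapped with DMSO. On the opposite strand SLC6A9 overlaps CCDC24 (5029 bases), which was not listed, and the noncoding gene AL139220.2 (1025 bases), which was. The sources used here do not say whether counting used strand. SLC43A1 (chr11:57484534-57515786, minus strand), the facilitative carrier LAT3 for large neutral amino acids, had 174, 172 and 155 in DMSO and 695, 449 and 534 in the combination. SLC7A1 (chr13:29509410-29595688, minus strand), the arginine and lysine carrier CAT1, had 3816, 4056 and 3885 and 7776, 9343 and 9401. These rose 3.36-fold and 2.26-fold with separate groups, although SLC43A1 was highest and SLC7A1 lowest in replicate 1.

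Carriers that fell included SLC38A4 (chr12:46764761-46832408, minus strand), a sodium-coupled carrier of neutral amino acids, with 210.0, 192 and 234 in DMSO and 47.1, 63.01 and 63.2 in the combination, 0.273 of the DMSO mean. SLC1A3 (chr5:36606355-36688334, plus strand) fell from 51.8, 58.8 and 54.4 to 10.96, 12.97 and 20.1, 0.267 of DMSO. Both falls separated all libraries and kept a log2 change of -1.73 and -1.70 without combination replicate 1, compared with -1.86 and -1.88 with it. The members with fewer reads, singled out after their values were seen, were SLC15A2, the peptide transporter PEPT2, at 8.79, 6.43 and 4.27 in DMSO and 25.2, 25.9 and 32.6 in the combination, SLC7A2, the cationic amino acid carrier CAT2, at 17.6, 9.18 and 8.54 and 24.1, 50.96 and 61.3, and SLC6A16 at 52.7, 58.8 and 49.1 and 3.29, 10.2 and 7.66. The first pair were higher and SLC6A16 lower in every combination library. SLC7A2 was lowest in replicate 1, at 24.1, near the highest DMSO value of 17.6.

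**Figure D3:**
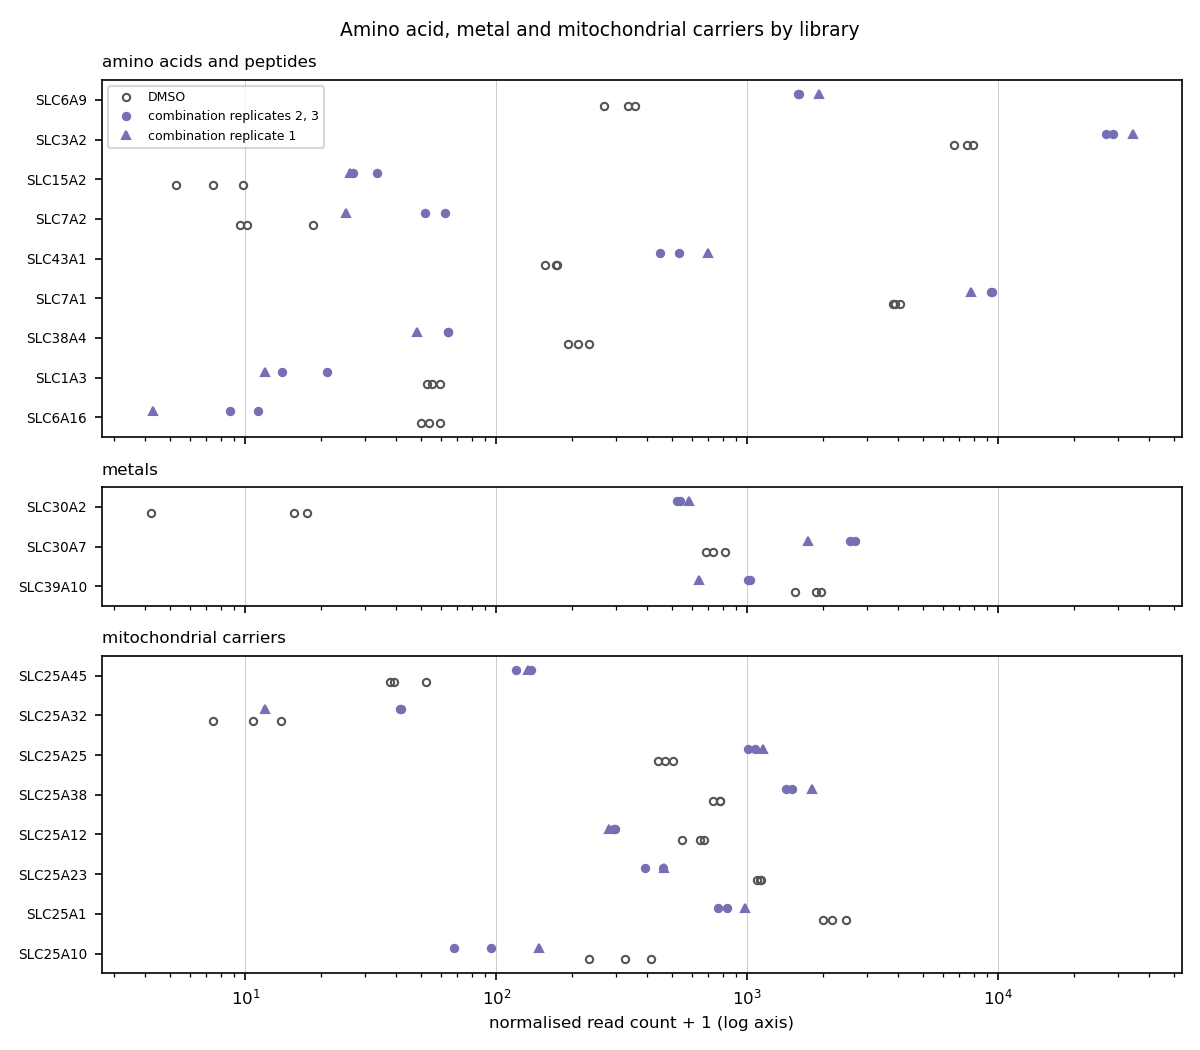
Normalised reads plus 1 per library (x axis, log scale) of the amino acid, metal and mitochondrial carriers of the combination table, with 1 gene per row. Open circles are the 3 DMSO libraries, filled circles combination replicates 2 and 3, and triangles combination replicate 1. The groups separate for every gene except SLC25A32, whose replicate 1 value of 11.0 lies among the DMSO values.

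Of the 3 zinc transporters listed for the combination, SLC30A2 changed most. SLC30A2 (chr1:26037252-26046133, minus strand) had 16.6, 14.7 and 3.20 normalised reads in DMSO and 584, 537 and 526 in the combination, means of 11.5 ± 7.25 and 549 ± 31.1 (SD, n = 3). The combination mean was 47.7 times the DMSO mean and its libraries were close together, while with ezetimibe alone the gene had 35.1, 30.95 and 32.3. The log2 change of 5.71 ± 0.46 (SE) became 5.05 without DMSO replicate 3, the library with the fewest reads of it. SLC30A7 (chr1:100896076-100981753, plus strand), which encodes ZnT7 and loads zinc into the Golgi, had 684, 728 and 815 in DMSO and 1750.4, 2683 and 2554 in the combination, 3.14-fold. SLC39A10 (chr2:195575977-195737702, plus strand), the zinc importer ZIP10, went the other way, from 1873, 1548 and 1966 to 639, 1029 and 1009, 0.497 of DMSO. Replicate 1 was the lowest combination library for SLC30A7 and SLC39A10, and without it their log2 changes were 1.82 and -0.81 in place of 1.63 and -1.03. Transcripts of SLC30A2 and SLC30A7, which move zinc out of the cytosol, were higher and that of the importer SLC39A10 lower. These were 3 of 32 annotated metal carriers (9.38%, beside 13.7% of protein-coding genes). The other metal carriers, SLC30A4 among them, were not listed in the combination, so no direction of zinc transport is read from these genes.

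Metallothioneins, small proteins that bind zinc and other metals, were among 34 further transport and amino acid sensing genes counted beside the carriers. In the combination MT1G had 533 ± 94.9 against 141 ± 8.08 in DMSO (SD, n = 3), MT2A had 2220.1 ± 279 against 876 ± 26.9, MT1F had 374 ± 37.3 against 178 ± 23.5 and MT1M had 84.1 ± 11.4 against 35.4 ± 5.76. Of the 6 metallothioneins counted these 4 were listed, all higher, and MT1E and MT1X were not listed. MT1G and MT1M were also listed higher with each drug alone. MT1G had 324 ± 79.8 with fenofibrate (DMSO 137 ± 7.84) and 359 ± 35.1 with ezetimibe (DMSO 141 ± 8.23). MT1M had 96.0 ± 48.9 with fenofibrate (DMSO 34.5 ± 5.69) and 71.1 ± 8.14 with ezetimibe (DMSO 35.5 ± 5.73). Its fenofibrate libraries had 56.3, 151 and 81.0, so that replicate 2 alone was above the combination mean, and that difference was not tested. MT2A and MT1F were not listed with either drug alone. In all, 9 of the 34 genes were listed higher and 2 lower in the combination, beside 7.46% and 6.28% of protein-coding genes. With ezetimibe 6 were higher and 1 lower, beside 1.54% and 0.446%, and with fenofibrate 4 and 0, beside 0.436% and 0.0451%. The 34 genes were chosen with earlier results of these data known, so nothing is read from these counts. ASNS (asparagine synthetase), a gene of amino acid supply, had 175 ± 28.4 in the combination against 29.8 ± 5.23 in DMSO, and was also listed with fenofibrate at 78.6 ± 11.01 and with ezetimibe at 136 ± 19.3. SESN2 and DDIT4, which restrain mTORC1 signalling, had 3959.7 ± 464 against 874 ± 60.3 and 2164 ± 128 against 476 ± 97.03 in the combination. Both were also listed higher with ezetimibe and were not listed with fenofibrate. The exporter ABCC3 and CLTRN, a partner of neutral amino acid carriers, were also higher in the combination. ABCC3 was listed higher with each drug alone as well, and CLTRN with neither. The water channel AQP1 (26.9 ± 4.29 against 178 ± 13.8) and ATP1B3, a sodium pump subunit (1481 ± 46.98 against 3114 ± 247), were lower in the combination. AQP1 was also listed lower with ezetimibe, while ATP1B3 was not listed with either drug alone.

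The metal response element is the site bound by the zinc-sensing factor MTF1, and the amino acid response element is a site of ATF4 and its partners. Promoter sequences from RefSeq (GRCh38.p14) are shown for the zinc transporters that move zinc out of the cytosol, for SLC6A9, the carrier listed in all 3 tables, and for SLC1A3, the member with the amino acid response element core. Each is the 250 bases before the RefSeq gene start, written 5′ to 3′ on the gene's strand, with motif matches in capitals (in SLC30A2 and SLC30A4 the metal response element cores TGCACNC and TGCGCNC, and in SLC1A3 TGATGNAA, each on either strand). The SLC30A2 window is chr1:26046119-26046368, minus strand, the SLC30A4 window chr15:45522756-45523005, minus strand, the SLC30A7 window chr1:100895840-100896089, plus strand, the SLC6A9 window chr1:44031463-44031712, minus strand, and the SLC1A3 window chr5:36596338-36596587, plus strand. The last ends well before the deposited gene start at chr5:36606355 and holds no bases of the counted gene, while the other windows reach into theirs. In SLC30A7 and SLC6A9 none of the 5 motifs searched occurred.
SLC30A2: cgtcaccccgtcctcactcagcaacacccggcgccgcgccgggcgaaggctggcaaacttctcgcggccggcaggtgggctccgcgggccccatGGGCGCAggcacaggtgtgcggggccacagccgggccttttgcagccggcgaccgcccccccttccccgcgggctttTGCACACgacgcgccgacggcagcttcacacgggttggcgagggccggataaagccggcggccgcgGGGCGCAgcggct
SLC30A4: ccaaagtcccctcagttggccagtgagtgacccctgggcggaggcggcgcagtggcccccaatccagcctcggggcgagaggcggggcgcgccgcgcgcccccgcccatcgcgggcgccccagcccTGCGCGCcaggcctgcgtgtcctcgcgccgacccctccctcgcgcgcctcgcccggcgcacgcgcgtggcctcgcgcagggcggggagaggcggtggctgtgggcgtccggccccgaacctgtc
SLC30A7: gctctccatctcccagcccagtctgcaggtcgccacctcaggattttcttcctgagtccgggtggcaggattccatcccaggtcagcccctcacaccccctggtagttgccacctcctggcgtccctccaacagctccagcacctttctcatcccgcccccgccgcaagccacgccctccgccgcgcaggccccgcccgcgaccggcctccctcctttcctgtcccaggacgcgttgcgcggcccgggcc
SLC6A9: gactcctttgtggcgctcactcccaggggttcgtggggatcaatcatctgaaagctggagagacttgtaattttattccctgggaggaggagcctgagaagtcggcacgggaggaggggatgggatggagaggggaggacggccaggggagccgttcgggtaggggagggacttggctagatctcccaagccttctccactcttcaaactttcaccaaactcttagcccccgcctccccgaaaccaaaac
SLC1A3: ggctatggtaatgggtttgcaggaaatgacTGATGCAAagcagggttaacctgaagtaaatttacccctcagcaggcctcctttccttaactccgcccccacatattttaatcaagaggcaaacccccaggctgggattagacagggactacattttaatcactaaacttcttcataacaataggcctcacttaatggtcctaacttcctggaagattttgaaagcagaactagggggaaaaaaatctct
Of the 62 members 51 matched a RefSeq promoter by symbol. The metal response element core TGCACNC was in 7 of them (13.7%), beside 9.87% of 35116 promoters, and TGCGCNC was in 13 (25.5%), beside 16.8%. TGATGNAA was in 1 member (SLC1A3, in the window well before the deposited gene start), beside 3.14% of promoters. The endoplasmic reticulum stress element (CCAAT and, after a gap of 9 bases, CCACG) and the sterol response element TCACNCCAC were in 0 of the 51, and they were in 0.0740% and 0.883% of promoters. SLC30A2 had 3 metal core matches and SLC30A4 had 1. These letter matches are a description of the windows and say nothing of binding.

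Of the 7 members of the organic ion and carboxylate families listed for the combination 6 were higher, where 58.7% of all listed genes were. Of the class 10.6% was listed, beside 13.7% of protein-coding genes. SLC22A15 (chr1:115976498-116070054, plus strand), of the organic ion transporter family, had 26.4, 18.4 and 16.01 normalised reads in DMSO and 176, 214 and 213 in the combination, 9.93-fold. SLC22A31 had 1.95, 7.34 and 12.8 and 71.2, 47.3 and 56.5, 7.92-fold, and its log2 change of 3.07 ± 0.51 became 2.45 without DMSO replicate 1. SLC10A7, a member of the bile acid carrier family linked to calcium balance and glycosylation, had 142, 138 and 211 and 429, 701 and 666. All 3 separated the groups, with replicate 1 lowest for SLC22A15 and SLC10A7 and highest for SLC22A31. SLC16A10 (chr6:111087503-111231194, plus strand), the aromatic amino acid carrier TAT1, was the single fall, from 306, 323 and 334 to 63.6, 78.8 and 60.3, 0.210 of DMSO. Its 3 combination libraries were all low. Named after their values were seen, SLC16A6 (monocarboxylate transporter MCT7) had 14.7, 22.03 and 13.9 in DMSO and 81.1, 88.03 and 77.6 in the combination, and SLC22A18 and SLC16A8 (the lactate carrier MCT3) were higher at means of 21.2 ± 7.39 against 3.60 ± 2.81 and 15.4 ± 1.59 against 3.81 ± 3.06. SLC22A18 and SLC16A6 both share bases with other genes, SLC22A18AS and ARSG.

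Carriers of inorganic ions included well expressed genes that rose. SLC20A1 (chr2:112645857-112663827, plus strand), the sodium-coupled phosphate importer PiT-1, had 2062, 2086 and 2243 normalised reads in DMSO and 6558, 5690.2 and 5784 in the combination, 2.82-fold. SLC24A1 had 163, 148 and 145 and 418, 526 and 408, and SLC12A8, of the cation-chloride cotransporter family, had 398, 361 and 346 and 967, 867 and 859. In none of the 3 did the groups overlap. Among the falls, SLC4A8, a sodium-driven chloride/bicarbonate exchanger, went from 200.2, 199 and 249 to 63.6, 58.4 and 77.6, 0.308 of DMSO. SLC26A6, an exchanger of chloride, oxalate and bicarbonate, went from 564, 624 and 553 to 326, 259 and 260.5. Neither overlapped between groups. SLC4A4 (NBCe1), the sodium bicarbonate cotransporter, was also lower in every library, at 23.4, 20.2 and 22.4 in DMSO and 2.19, 4.63 and 0.958 in the combination. SLC12A3, the thiazide-sensitive sodium-chloride cotransporter, was lower at 30.6 ± 2.46 against 65.2 ± 16.9, and SLC34A2, the phosphate cotransporter NaPi-IIb, was higher at 20.1 ± 6.42 against 2.96 ± 0.226. SLC9A2, the exchanger NHE2, had 19 reads over the 3 combination libraries and 0 over DMSO, so it was at least 6.36-fold higher if 3 reads are taken as the floor of the whole DMSO group. The chloride carrier SLC26A9 had 24 reads against 1, a ratio of 24.1 (exact 95% interval 3.93 to 992, counting error only). SLC4A4, SLC12A3, SLC34A2, SLC9A2 and SLC26A9 were named after their values were seen.

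Mitochondrial carriers moved in both directions. SLC25A1 (chr22:19175575-19178830, minus strand), which exports citrate from the matrix for lipid synthesis, had 2179, 2475 and 2008 normalised reads in DMSO and 982, 763 and 830.2 in the combination, 0.387 of DMSO. Per kilobase it was the second most abundant member in DMSO at 1059, and 409 in the combination. SLC25A10 (chr17:81712236-81721016, plus strand), the dicarboxylate carrier, had 324, 413 and 233 and 147, 66.7 and 93.8, 0.317 of DMSO. The fall of SLC25A1 was even across libraries, while SLC25A10 was highest in combination replicate 1 and its log2 change was -1.98 without that library and -1.68 with it. SLC25A10 shares 8304 bases with AC139530.2 on the same strand, and how the authors' counting treated shared bases is not stated. SLC25A12, an aspartate/glutamate carrier of the malate-aspartate shuttle, fell from 670.1, 549 and 647 to 281, 295 and 297. SLC25A23, which exchanges ATP-magnesium for phosphate, fell from 1094, 1130.1 and 1123 to 464, 389 and 459.6. SLC25A25, of the same ATP-magnesium/phosphate subfamily, rose from 439, 504 and 471 to 1154, 1004 and 1069. These 2 related carriers thus had separate groups in opposite directions, at 0.392 of DMSO for SLC25A23 and 2.28-fold for SLC25A25.

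SLC25A38, which brings glycine into mitochondria for haem synthesis, rose from 775, 780.4 and 731 to 1809.6, 1420.5 and 1505, 2.07-fold. SLC25A45, a carrier of the same family, rose from 38.1, 36.7 and 51.2 to 133, 136 and 119, 3.07-fold. Neither overlapped between groups. SLC25A32, the folate and FAD carrier, was the least certain of the 58 and was named after its values were seen. It had 9.77, 12.9 and 6.40 in DMSO and 10.96, 40.8 and 40.2 in the combination, so that replicate 1 lay within the DMSO values. Its log2 change was 1.41 ± 0.51 with limma adjusted p = 0.0194, and it was 2.01 without combination replicate 1. The limma adjusted p was 0.0996, 0.0937 and 0.0731 without combination replicate 2, combination replicate 3 and DMSO replicate 3. SLC25A32 shares 16532 bases with AC012213.5 on the same strand.

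Of the 11 members of the sugar and nucleotide sugar families listed for the combination 9 were higher, where 58.7% of all listed genes were. Of the class 16.9% was listed, beside 13.7% of protein-coding genes. SLC35G2 (chr3:136818647-136855892, plus strand), an orphan of the nucleotide sugar carrier family, had 61.5, 36.7 and 59.8 normalised reads in DMSO and 423, 388 and 339.9 in the combination, 7.29-fold. SLC35B1, which brings ATP into the endoplasmic reticulum, had 1038, 922 and 1004 and 2892, 2311 and 2345, 2.55-fold. SLC35C1, the Golgi GDP-fucose carrier, had 283, 295 and 245 and 772, 489 and 580.3. Replicate 1 was the highest combination library for all 3, no groups overlapped, and without it the change of SLC35C1 was 0.96 in place of 1.14. SLC2A11 had 105, 104 and 89.7 and 294, 259 and 256 and shares 24122 bases with AP000350.4 on the same strand. SLC45A1 had 19.5, 28.5 and 22.4 in DMSO and 58.1, 42.6 and 47.9 in the combination. SLC50A1, SLC35E1 and SLC35F2, given here as class members, rose 2.21-fold, 2.05-fold and 2.04-fold. SLC35E1 shares 22552 bases with AC008764.1 on the same strand. SLC5A4, of the sodium-glucose cotransporter family and also named after its values were seen, had 35 reads over the combination libraries and 0 over DMSO, so it was at least 11.7-fold higher by the same floor of 3 reads. On the opposite strand SLC5A4-AS1, which was not listed, overlaps it by 36866 bases, so these reads could belong to either gene if counting ignored strand.

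Of the 2 falls in the sugar class, SLC5A3 (chr21:34073570-34106262, plus strand), the sodium/myo-inositol cotransporter used in osmotic balance, depended most on replicate 1. It had 2145, 2019.7 and 2485 in DMSO and 299, 804 and 725 in the combination, where replicate 1 was the lowest by a wide margin. The fall was -1.98 ± 0.30 on the log2 scale with all libraries and -1.53 without replicate 1. SLC5A3 shares 32693 bases with MRPS6 on the same strand, so reads in the shared bases could belong to either gene. SLC2A12, the facilitative glucose transporter GLUT12, fell from 424, 426 and 456 to 101, 174 and 143, 0.320 of DMSO. Its replicate 1 was again the lowest, and the groups did not overlap.

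**Figure D4:**
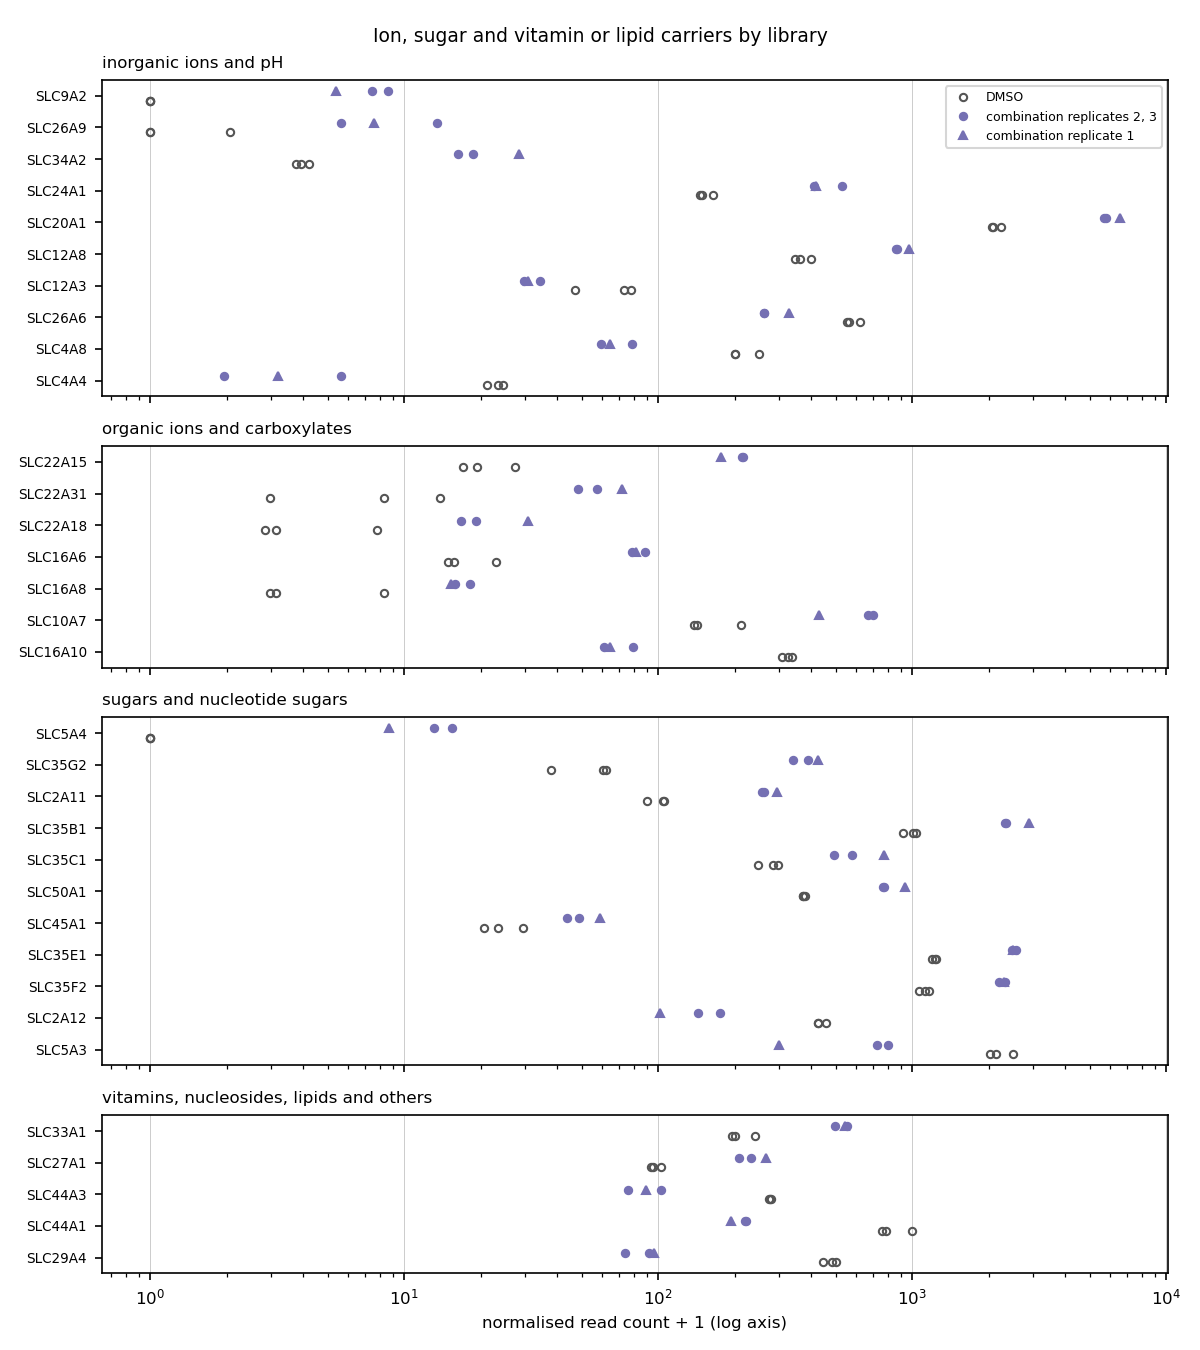
Normalised reads plus 1 per library (x axis, log scale) of other solute carrier genes of the combination table, with 1 gene per row grouped by class. Open circles are the 3 DMSO libraries, filled circles combination replicates 2 and 3, and triangles combination replicate 1. The groups do not overlap for any gene shown, and the triangle of SLC5A3 (299) lies below its other combination values (804 and 725).

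Choline, nucleoside and fatty acid carriers gave 3 falls and 2 rises. SLC44A1 (chr9:105244622-105439171, plus strand), the choline carrier CTL1 that supplies phosphatidylcholine synthesis, had 786, 762 and 994 in DMSO and 193, 221 and 219 in the combination, 0.249 of DMSO. SLC44A3 (chr1:94820342-94895246, plus strand), of the same choline carrier-like family, had 277, 275 and 271 and 88.8, 75.1 and 102, 0.322 of DMSO. SLC29A4 (chr7:5274369-5306870, plus strand), the monoamine transporter PMAT, had 444, 483 and 498 and 95.4, 73.2 and 90.97, 0.182 of DMSO. The 3 were low in every combination library, and the DMSO values of SLC44A3 were nearly equal. The rises were SLC33A1, from 200.2, 194 and 240.2 to 545, 498 and 551, and SLC27A1, the fatty acid transport protein FATP1, from 102, 94.6 and 92.9 to 264, 207 and 231. SLC33A1 shares 33419 bases with AC104472.3 on the same strand. SLC29A2, the nucleoside carrier raised by fenofibrate, was not listed in the combination.

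The remaining members do not encode carriers. SLC9A3R2, a scaffold protein that binds sodium/proton exchangers, fell from 1030.5, 1204 and 781 to 540.3, 406 and 399, 0.446 of DMSO. SLC44A3-AS1 lies on the strand opposite SLC44A3 and overlaps it by 35085 bases. It had 81.1, 83.5 and 92.9 in DMSO and 21.9, 14.8 and 27.8 in the combination, and if counting ignored strand its reads cannot be told apart from those of SLC44A3. SLC7A5P1, a pseudogene, had 30.3, 31.2 and 16.01 and 49.3, 88.95 and 102. It is uncertain because reads of the parent gene SLC7A5, itself not listed, can be assigned to it. Every combination library lay outside the DMSO values for these 3. SLC9A7P1, another pseudogene, named after its values were seen, had 4.88, 1.84 and 6.40 and 31.8, 13.9 and 11.5. In all, 42 of the 62 members overlap another annotated gene, 34 of them on the opposite strand. Opposite-strand genes that were themselves listed also overlap SLC27A1 (AC010618.3, 17179 bases), SLC4A8 (GALNT6, 1551 bases) and SLC25A25 (NAIF1, 6 bases).

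Combination replicate 1, the library that stood apart, was compared with replicates 2 and 3 over the 41 members with a mean of at least 50 in the combination. Their change from DMSO differed by more than 0.5 log2 in 9 of the 41 (21.95%), beside 16.3% of the 2303 genes listed with such a mean. The direction was the same in all 41, as in all 2303 of those genes, which the listing largely fixes. Replicate 1 had the lower level in 6 of the 9: SLC5A3 (-1.35), SLC7A5P1 (-0.94), SLC39A10 (-0.67), SLC10A7 (-0.67), SLC2A12 (-0.64) and SLC30A7 (-0.58). It had the higher level for SLC25A10 (0.88), SLC35C1 (0.53) and SLC43A1 (0.50). Over the 41 genes the difference correlated with log2 gene length at -0.124, given as a description since all points share these libraries. The 15 members lower in replicate 1 had a median length of 7257 bases and the 26 higher ones 5048 bases. The part of replicate 1 or of length in the combination changes was not tested beyond these values.

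**Figure D5:**
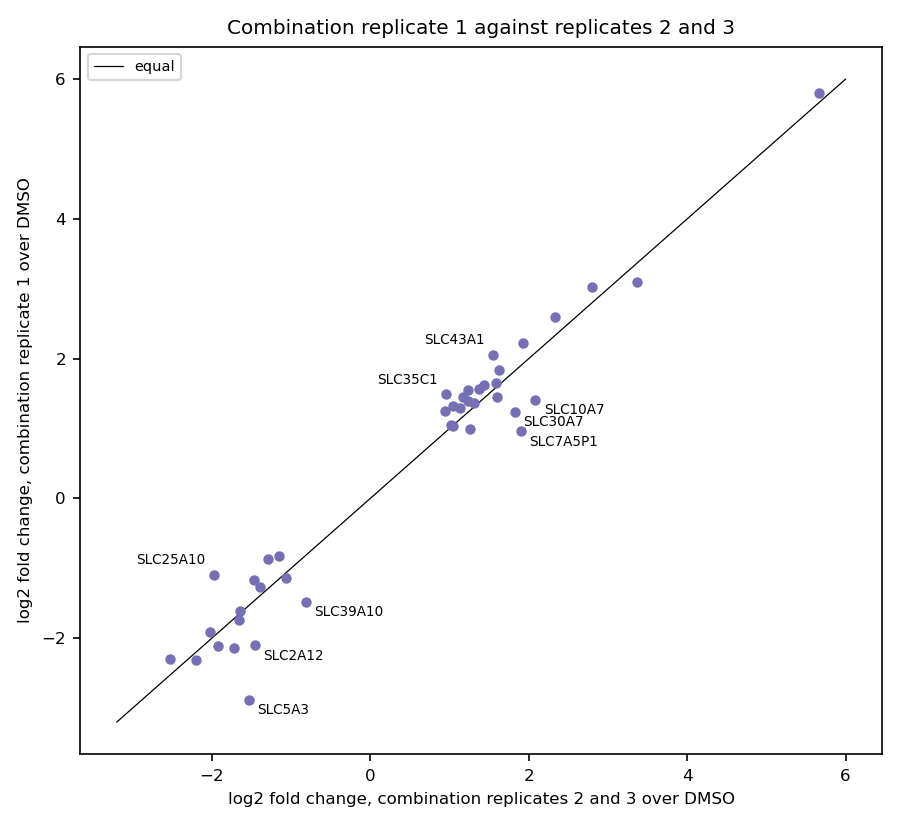
Log2 fold change over DMSO in combination replicate 1 (y axis) against that in replicates 2 and 3 (x axis) for the 41 members with a mean of at least 50. Points are genes, the line marks equal changes, and the 9 genes that differ by more than 0.5 are named. For all points both changes have the same sign, and SLC5A3 lies farthest from the line.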

How the data were processed

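The sequenced material was RNA of Cal51 cells, extracted and prepared with kits that the labels name. Per the submitters' processing notes, the tools were fastp, HISAT2 2.0.5 and featureCounts 1.5.0-p3, and the build was hg38. The tool behind the fold changes is not stated. Each of the 3 deposited tables holds, per the file headers, a signal per library (a normalised read count), the authors' log2 fold change and the authors' p-values. For the combination, 100% of the deposited values divided to whole reads within 0.01, with factors of 0.912 to 1.09. All 3647 genes had equal coordinates in GENCODE release 29.

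Changes were computed from the library values with limma 3.58.1 (trend, R 4.3.3) on log2(value + 1), 2-sided, with Benjamini-Hochberg adjustment over all genes of a fit and a threshold of 0.05; the added 1 understates changes of low genes. Limma called 3, 11 and 58 members, where it called 100%, 99.8% and 100% of the table genes, which were listed from the same libraries. Folds are ratios of means. Tables were joined through the DMSO libraries (mean ratios 0.975 for fenofibrate and 1.00 for ezetimibe over the combination). edgeR 4.0.16 and DESeq2 1.42.0 were run on the recovered reads of the combination, where they called 3508 and 3506 of 3508 genes. The code was tested on simulated data.

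Carriers were classed by SLC family number. Named with values were members listed in at least 2 tables, all members of a table with at most 12, and per class up to 4 rises and 4 falls with the largest deposited log2 fold change among those averaging 50 or more reads and not overlapping. Values of 1 member are not reported here, although the counts include it. The members and lists were chosen with earlier results of these data known. Alternatives tried were other pseudocounts, a filter on low values, the count tests, the replicate number as a term, and leaving out each library.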

Additional observations from a re-analysis of the deposited data

Results flagged for a closer look

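For SLC6A9, the glycine transporter GlyT1, the ezetimibe change on the log2 scale differed with and without fenofibrate. The change with fenofibrate present minus that without it was -1.01 ± 0.15 on the log2 scale, so it was smaller (SE, 3 libraries per group, limma adjusted p = 0.000135 over 49 genes). On the common scale its means were 319 in DMSO, 854 with fenofibrate, 1271 with ezetimibe and 1707 in the combination, with no overlap between any of the 4 groups. Of the 49 genes, 71.4% departed from the sum of the single-drug log2 changes (55.1% below it and 16.3% above). These genes entered the fit only because each drug alone and the combination were listed against DMSO. Departure from a sum of changes in reads was not tested.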

How the results depend on the processing

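The listing from the same libraries largely fixes the calls against DMSO, so their sameness under the alternatives is not a test of the changes. The counts of carriers called against DMSO were 3 for fenofibrate and 11 for ezetimibe under every alternative run. For the combination the count was 58, but 54 with a minimum mean of 10, and 54 is made of 34 higher and 20 lower. It was 57, with SLC25A32 lost, without combination replicate 2, combination replicate 3 or DMSO replicate 3. edgeR and DESeq2 on the recovered reads called 58 each. Whole reads were not recovered for the single-drug tables, so their count tests and those of the joined tables were not run. The number of carriers that differed between the combination and ezetimibe alone was 4, and 2 to 4 when single libraries were left out. With single libraries left out, the combination minus ezetimibe difference ran from -0.0041 to 0.29 for SLC22A31 and from -0.10 to 0.12 for SLC45A1. Without combination replicate 1 the combination minus ezetimibe difference turned from 0.15 to -0.0041 for SLC22A31 and from 0.02 to -0.10 for SLC45A1, and without ezetimibe replicate 1 it was -0.05 for SLC45A1; the cause was not tested. Of the values for named carriers under all alternatives, 753 kept their direction and side of the threshold, 9 (SLC2A11 and SLC24A1 between the combination and ezetimibe) lost the call, and 3 reversed, as given. The changes against DMSO among the 753 are of listed genes, so nothing is read from that number. The labels do not say whether same-numbered libraries were paired, and the values here cannot settle it. Deviations of same-numbered treated and DMSO libraries correlated at -0.0815, -0.0492 and -0.149 for fenofibrate. They correlated at -0.0472, 0.0978 and 0.05001 for ezetimibe, and at 0.0916, -0.327 and 0.157 for the combination. A replicate block left the counts at 3, 11 and 58 against DMSO and at 4, 1 and 1 in the joined tables. Total depth is unknown, and 4 of the 58 carriers had a mean under 10.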
